A study of Mus musculus with 8 samples.

Results

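Among the genes measured in these arrays, 66 of 14030 (0.47%) were chosen as brighter in mouse primordial germ cells and after 3 days of culture than after 6 days and in embryonic germ cells. Primordial germ cells are the cells of the embryo that later form eggs or sperm, and embryonic germ cells are pluripotent cells grown from them. A gene was taken when the lowest of its 4 arrays of E11.5 PGC and Day3 (the early arrays) lay at least 0.7 above the highest of its 4 arrays of Day6 and EG (the late arrays) on the log2 scale, which is 1.62-fold, and when the means of Day3 and E11.5 PGC differed by less than 1. That distance is called the gap. The genes were thus chosen by their measured intensities on all 8 arrays, so differences between early and late arrays are a description, with no test. The choice did not set EG against Day6, but it capped the brightest of the Day6 and EG arrays, so the values of that contrast, taken from a fit over all probes, are not independent of the choice either.

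The study has 8 one-colour arrays in 4 groups of 2, all from mouse cells with a Nanog-GFP reporter, a green marker of pluripotency. E11.5 PGC (shortened to PGC beside values) are germ cells taken from embryos of the day in their name, Day3 and Day6 are cells on culture days 3 and 6, and EG are embryonic germ cells. All sample names but those of E11.5 PGC include an inhibitor mix, which the labels give as 1 µM PD325901 (against MEK), 3 µM CHIR99021 (against GSK3) and 250 nM A83-01 (against the Activin and Nodal type I receptors). The medium was Knockout DMEM with LIF, bFGF, 15% serum replacement, glutamine (2 mM), 2-mercaptoethanol and nonessential amino acids (1 mM), and candidate pluripotent cells were sorted by FACS during the culture. The protocol text is the same on every sample, so it does not tell whether the E11.5 PGC had met the medium or the inhibitors. Nor does it say whether the 2 arrays of a group came from separate litters, cultures or lines, so p-values measure only the spread between these arrays, which may be technical. Values are linear intensities scaled by the authors, with array medians of 19.99 to 20.01 and 21126 to 22404 probe values per array; 2 arrays per group limit the precision.

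At this stage mouse germ cells have reached the gonad and express a germline programme of RNA-binding proteins, Dmrt and Rhox transcription factors and Dppa3, together with a pluripotency network shared with stem cells. In culture with LIF, bFGF and kinase inhibitors some of them convert to embryonic germ cells, which renew themselves like embryonic stem cells. The markers of the labelled cells were present: Ddx4, a germ cell helicase gene, was at 626 and 498 in E11.5 PGC, and Nanog had 4294 and 8992 at Day6 and 2422 and 4183 in EG. Nanog was also bright in E11.5 PGC, with 1520 and 1707. Summed over 5 pluripotent markers, the intensity was 3001 to 3011 in E11.5 PGC, 6304 to 7494 at Day3, 11140 to 13825 at Day6 and 8484 to 10511 in EG. Of these 5, Esrrb overlapped between E11.5 PGC (7.20 and 17.5) and Day6 (15.1 and 28.3), with 17.9 and 22.2 in EG. Summed over 8 germ cell markers, leaving out Dppa3, which belongs to the 66, the intensity was 5289 to 7018 in E11.5 PGC, 3400.0 to 3419 at Day3, 1022 to 2410.5 at Day6 and 1149 to 1213 in EG. Of these markers, Prdm1 and Prdm14 overlapped between E11.5 PGC and EG, with Prdm14 at 172 and 123 against 119.5 and 146 and Prdm1 at 19.7 and 44.3 against 35.6 and 19.6. Over 6 gonadal somatic markers the sum was 28.2 to 39.6 in E11.5 PGC and 13.1 to 21.0 in the other groups, with Nr5a1 under 4.24 wherever it was measured; 4.24, under which 25% of probes lie by their mean, is called the dim limit here. Over 6 fibroblast markers it was 1102 on Day6 replicate 1, mostly Thy1 (747), against 89.0 on Day6 replicate 2 and 55.1 to 388 in the other groups. The endothelial sum (5 markers) was 108 to 137 in E11.5 PGC and 34.97 to 55.8 elsewhere. It was mostly Cldn5 in E11.5 PGC (105 and 80.7, against 4.11 to 14.1 elsewhere). Kdr and Tie1 overlapped between E11.5 PGC and the other groups, and Tek was lower in E11.5 PGC (1.74 and 1.91, against 3.22 to 21.5). The blood sum (3 of 5 markers named) was 58.0 to 59.6 in E11.5 PGC, mostly Tyrobp (43.3 and 34.6), and 18.4 to 35.3 elsewhere. Spi1 overlapped between E11.5 PGC and the other groups. The part of these cells in the values below was not tested, and with bulk RNA fewer cells of a type cannot be told apart from less RNA per cell.

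Promoter sequence was at hand for 54 of the 66 genes (RefSeq, build GRCm38.p6). The 250 bases before the transcription start used for the promoter windows are printed for 4 of them. These are Pdlim4 and Dsp, which had the second and the fifth largest gap, and Kank1 and Dmrt3, which lie on either side of Dmrt1 in a run of 3 neighbouring genes of the set. That start can differ from the edge of the gene. The printed bases of Dmrt3 and nearly all of those of Kank1 lie inside the gene (gene starts 25610246 and 25236732), and those of Pdlim4 overlap the gene end (54069032). Capitals mark TCCCGC, the core of E2F-type sites, or its reverse complement GCGGGA.
Pdlim4, chr11:54069018-54069267, minus strand: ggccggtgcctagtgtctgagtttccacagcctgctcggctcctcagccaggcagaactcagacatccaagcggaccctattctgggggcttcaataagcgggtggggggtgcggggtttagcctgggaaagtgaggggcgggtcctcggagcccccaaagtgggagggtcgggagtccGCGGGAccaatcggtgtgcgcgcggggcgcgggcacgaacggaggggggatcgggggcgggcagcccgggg
Dsp, chr13:38151044-38151293, plus strand: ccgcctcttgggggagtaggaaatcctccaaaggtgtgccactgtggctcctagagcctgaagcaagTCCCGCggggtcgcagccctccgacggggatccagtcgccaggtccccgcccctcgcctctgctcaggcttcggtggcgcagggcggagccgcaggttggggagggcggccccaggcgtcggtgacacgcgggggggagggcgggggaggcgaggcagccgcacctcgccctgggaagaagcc
Kank1, chr19:25236725-25236974, plus strand: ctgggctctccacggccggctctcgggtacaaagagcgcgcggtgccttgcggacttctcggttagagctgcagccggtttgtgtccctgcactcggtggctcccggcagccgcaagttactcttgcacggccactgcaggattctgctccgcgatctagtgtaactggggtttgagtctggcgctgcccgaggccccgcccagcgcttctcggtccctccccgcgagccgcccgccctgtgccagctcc
Dmrt3, chr19:25610287-25610536, plus strand: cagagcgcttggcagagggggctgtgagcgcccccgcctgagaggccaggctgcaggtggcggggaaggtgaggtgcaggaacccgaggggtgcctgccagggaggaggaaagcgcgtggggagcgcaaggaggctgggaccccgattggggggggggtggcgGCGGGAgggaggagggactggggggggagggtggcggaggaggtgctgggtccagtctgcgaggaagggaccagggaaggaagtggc

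Of these windows those of Pdlim4, Dsp and Dmrt3 hold the marked letters and that of Kank1 does not. Over the whole windows, from 250 bases before to 50 bases after the start and on both strands, TCCCGC was found for 22 of the 54 genes (40.7%), against 34.9% of the 11278 measured genes with a window. The shares for the other letters searched were 11.1% and 10.8% for CACGTG (E-box), 13.0% and 15.2% for CTTTGA (LEF/TCF type), 24.1% and 21.8% for GATAA, the letters of GATA factors, and 7.41% and 11.3% for the TATA box letters TATAAA. The median window of the 54 genes held 22 CpG and 65.2% G or C, against 20 and 60.7% over all measured genes. A match describes letters only, and these shares were not tested.

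**Figure D1:**
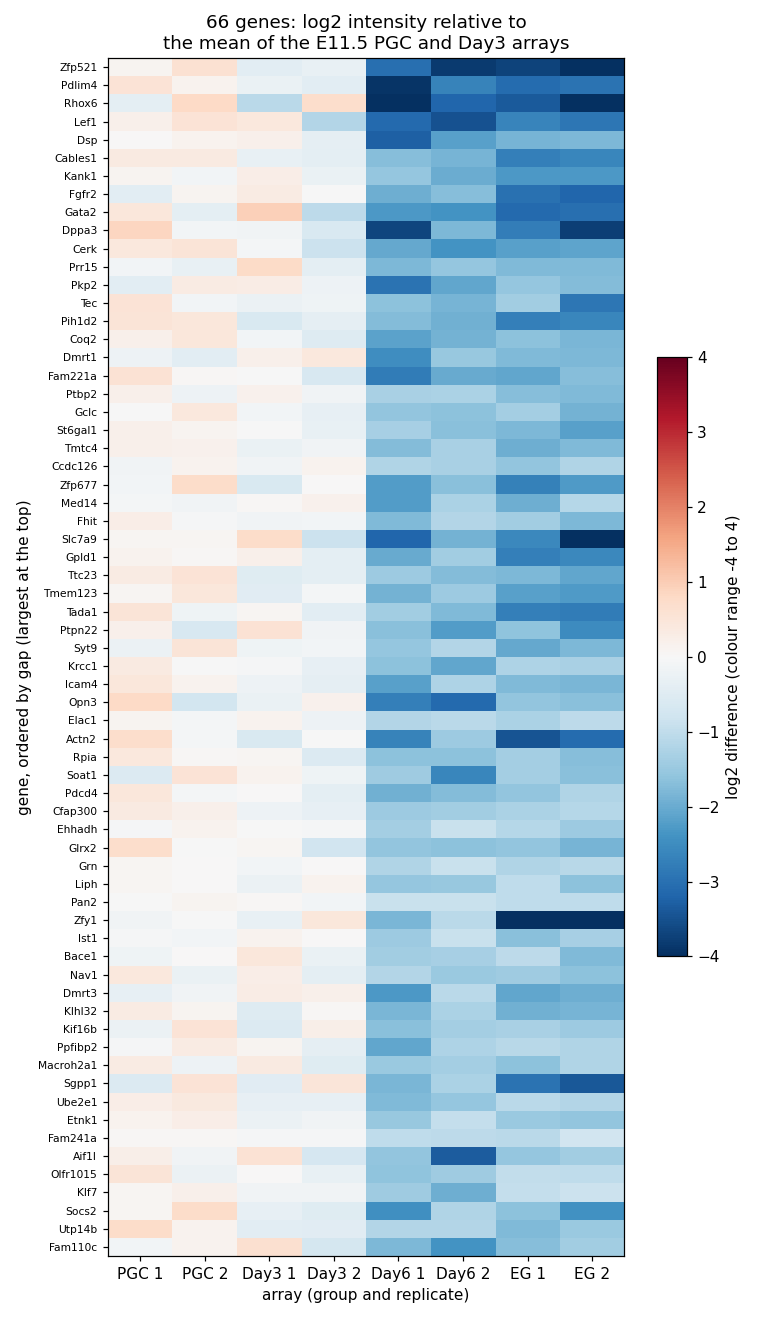
Log2 intensity of the 66 genes (rows, ordered by gap) on the 8 arrays (columns), relative to the mean of the gene's 4 early arrays; blue is lower, red is higher, and the colour scale ends at -4 and 4. The Day6 and EG columns are blue in every row, as the choice of genes requires, and Zfy1 is the row whose EG columns are much darker than its Day6 columns.

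Over the 66 genes the geometric mean of the early arrays was 1.93 to 21.3 times that of the late arrays, with a median of 3.38. Only Rhox6, Zfp521, Pdlim4 and Lef1 were over 8-fold (4 genes), 19 lay between 4-fold and 8-fold, and 43 under 4-fold. The median difference between Day6 and Day3 was -1.50 on the log2 scale, against -0.05 over all probes, and that between EG and E11.5 PGC was -1.83, against -0.16. Day3 itself was below E11.5 PGC in 54 genes and above it in 12, with a median of -0.28 and a range of -0.99 to 0.63. The lowest early array was most often Day3 replicate 2 (35 genes) and the highest late array most often Day6 replicate 2 (27 genes). Intensity stayed above the dim limit on at least 1 array of both late groups in 58 genes. Both Day6 arrays lay under it for Zfp521, Lef1, Tec, Opn3 and Kif16b, and both EG arrays for Zfp521, Tec, Kif16b, Syt9, Sgpp1 and Zfy1, so the sizes of these differences are not exact.

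The germ cell factors in the set were Dppa3, Rhox6, Dmrt1, Dmrt3 and Utp14b, with a median of 3.71-fold. Dppa3, also called Stella, protects maternal DNA methylation after fertilisation and marks germ cells and naive pluripotent cells. It gave PGC intensities of 10543 and 5303, followed by 5176 and 3798 on Day3, 456 and 1648 on Day6 and 843 and 424 for EG. The early arrays were 7.997 times as bright as the late ones, Day6 replicate 2 was the highest late array, and the arrays of Day6 and EG overlapped. Rhox6, an X-linked reproductive homeobox gene, had 1338 and 3066 for PGC, then 831 and 2851 (Day3) and 21.8 and 196 (Day6), and 171 and 64.5 for EG cells. Replicate 2 was the brighter array in the first 3 groups, and the difference of 21.3-fold was the largest of the 66. Rhox9 is a close copy of Rhox6, and its part in this signal was not tested.

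Dmrt1, a transcription factor that controls the entry of germ cells into meiosis, had 121 and 103 on the PGC arrays, 160.5 and 186 by Day3, 25.02 and 48.6 by Day6 and 41.05 and 39.6 in EG cells. Both Day3 arrays were above both E11.5 PGC arrays. Dmrt3, a related factor, showed the same order with PGC intensities of 25.3 and 28.8, followed by 39.2 and 36.7 on Day3, 6.49 and 15.1 on Day6 and 7.55 and 8.196 for EG. Utp14b, a retrogene for ribosome assembly that male germ cells need, had 448 and 298 for PGC, then 202 and 196 (Day3) and 119 and 120.4 (Day6), and 79.3 and 95.9 for EG cells, and unlike the Dmrt genes its Day3 arrays were already below both E11.5 PGC arrays.

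**Figure D2:**
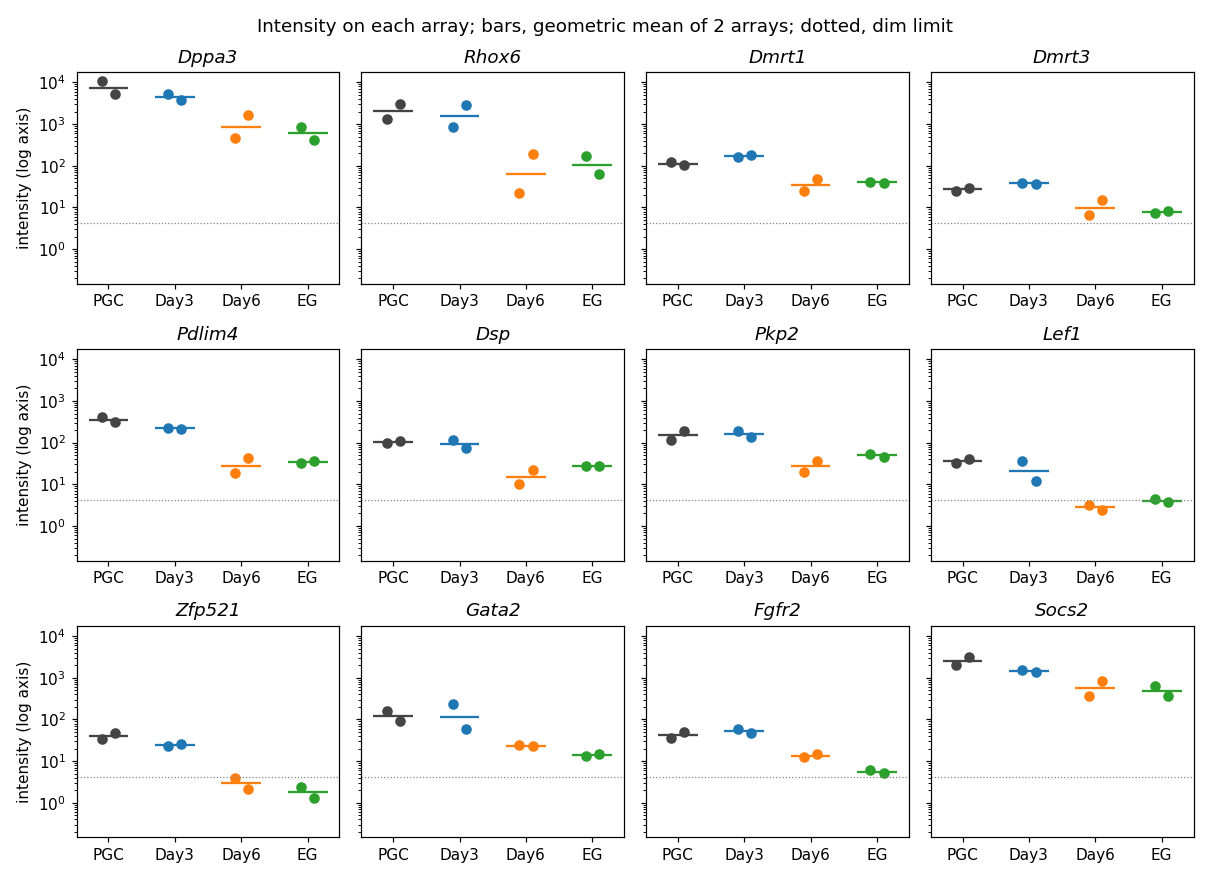
Intensity (log axis) of 12 genes on each array by group; points are arrays, replicate 1 on the left and replicate 2 on the right, bars are the geometric mean of the 2 arrays, and the dotted line is the dim limit (4.24). Dppa3 goes from 10543 and 5303 in E11.5 PGC to 843 and 424 in EG, and the late arrays of Zfp521 all lie under the dotted line.

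The other genes of the germ cell lists were compared between EG and E11.5 PGC with limma (adjusted p over 20761 probes, of which 5.61% were lower and 5.57% higher; at an unadjusted p under 0.05 these shares were 16.2% and 11.2%). Of 34 other later germ cell and piRNA pathway genes, 11 fell and 0 rose (19 lower and 0 higher at an unadjusted p under 0.05), and their median was -1.25, against -0.16 over all probes. Asz1, a piRNA pathway gene, fell by 6.38 ± 0.73 (SE, n = 2 arrays per group, limma adjusted p = 0.00427). Its intensity of 711 and 464 in E11.5 PGC stood against 59.3 and 81.5 at Day3, so both Day3 arrays were already below both E11.5 PGC arrays. Tdrd5, a Tudor domain gene of the same pathway, fell by 2.91 ± 0.38 (limma adjusted p = 0.00675) and came close to the set, with 188 and 150.0 on the PGC arrays, 118 and 59.3 by Day3, 14.9 and 16.6 by Day6 and 25.8 and 19.5 in EG cells. It met the gap, but its Day3 mean was slightly more than 1 log2 unit below that of E11.5 PGC. The count of 11 was 1 without EG replicate 1 and 2 without EG replicate 2, while leaving out the first or the second E11.5 PGC array gave 4 or 2; with the array series (the prefix of the array names in the labels) as a block 16 fell and 2 rose.

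Among 22 other early germ cell genes 4 fell and 3 rose, with a median of -0.36 beside -0.16 over all probes. Dnd1, a partner of Nanos proteins, fell by 4.24 ± 0.40, and Itga6, an integrin gene, rose by 2.21 ± 0.28 (SE, n = 2 arrays per group, limma adjusted p = 0.00262 and 0.00586). The Day3 arrays of Dnd1 (568 and 288) were already below both E11.5 PGC arrays (2140 and 1555), and its Day6 arrays had 43.0 and 30.7. The 4 and 3 were 2 and 0 without EG replicate 2, 2 and 1 without replicate 1 of EG or of E11.5 PGC, and 6 and 4 with the array series block. In the Rhox family Rhox8 fell by 1.38 ± 0.29 (limma adjusted p = 0.0272) of 3 others tested, with 22.1 and 21.5 in E11.5 PGC and already 9.02 and 7.97 at Day3. That call was lost without either EG array or either E11.5 PGC array. Rhox11 and Rhox13 gave no call (0.20 ± 0.27 and -0.99 ± 0.53). Of 32 germ cell RNA-binding genes 6 fell and 3 rose, with a median of -0.34. Among 30 meiosis genes 2 fell and 1 rose, with a median of -0.89. With the array series block these counts were 6 and 4, and 7 and 2. With either EG array or either E11.5 PGC array left out, 2 RNA-binding genes fell and 1 to 3 rose. The meiosis counts were 1 and 0 without EG replicate 1. They were 0 and 0 without EG replicate 2 or either E11.5 PGC array. The naive pluripotency list, which holds 1 gene of the set, went the other way. Of its 23 other genes tested 1 fell and 8 rose, with a median of 0.83 (1 and 12 with the array series block). These counts dropped to 0 and 3 without either EG array or without E11.5 PGC replicate 1, and to 0 and 4 without E11.5 PGC replicate 2.

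The 5 other transcription factors were Zfp521, Lef1, Gata2, Zfp677 and Klf7, with a median of 6.5-fold. Zfp521, a zinc finger regulator of blood and neural progenitors, had the largest gap (2.58) with PGC intensities of 33.6 and 47.4, followed by 23.1 and 25.3 on Day3, 3.87 and 2.21 on Day6 and 2.395 and 1.33 for EG. All of its late arrays were under the dim limit. Lef1, a DNA-binding partner of beta-catenin, had 31.9 and 40.5 for PGC, then 37.01 and 12.2 (Day3) and 3.18 and 2.45 (Day6), and 4.43 and 3.72 for EG cells. Day3 replicate 2 was well below the other early arrays and still 1.46 log2 units above the highest late array. Gata2, a factor of blood and trophoblast cells, had 162 and 91.2 on the PGC arrays, 232 and 57.6 by Day3, 24.1 and 22.7 by Day6 and 13.7 and 14.8 in EG cells, and both EG arrays were below both Day6 arrays. Klf7, a Krüppel-like factor, had PGC intensities of 72.4 and 78.6, followed by 61.3 and 61.0 on Day3, 25.3 and 17.6 on Day6 and 35.3 and 37.3 for EG, with EG above Day6 on both arrays.

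Of 97 other developmental transcription factor genes tested between EG and E11.5 PGC, 8 fell and 1 rose, where 5.61% and 5.57% of all probes did, with a median of -0.29 beside -0.16 over all probes. The one that rose was Neurod1, a neuronal factor, by 3.93 ± 0.50 (SE, n = 2 arrays per group, limma adjusted p = 0.00586). The counts were 2 and 1 without EG replicate 2, 4 and 1 without replicate 1 of EG or of E11.5 PGC, 3 and 0 when the second E11.5 PGC array was left out, and 11 and 5 with the array series block. Of 20 other Wnt targets tested with limma 0 rose and 0 fell (0 higher and 2 lower at an unadjusted p under 0.05, against 11.2% and 16.2% of all probes), with a median of -0.22 beside -0.16 over all probes; GSK3, the target of CHIR99021, is an inhibitor of this pathway. With the array series block, 2 fell.

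Genes of desmosomes, adhesion and the cytoskeleton made up 10 of the 66, with a median of 4.0-fold. Pdlim4, which encodes an actin-associated PDZ and LIM domain protein, had 404 and 306 for PGC, then 229 and 209 (Day3) and 18.4 and 43.1 (Day6), and 33.1 and 36.05 for EG cells. Its gap was 2.27, and Day6 replicate 2 was the highest late array. Dsp encodes desmoplakin, which links desmosomes to intermediate filaments, and had 98.8 and 109 on the PGC arrays, 114 and 75.9 by Day3, 10.2 and 21.9 by Day6 and 27.2 and 28.3 in EG cells. Pkp2, a second protein of the desmosomal plaque, had PGC intensities of 116 and 193, followed by 191 and 135 on Day3, 19.98 and 36.4 on Day6 and 52.9 and 46.5 for EG. Both genes were lowest at Day6, with both EG arrays above both Day6 arrays. Kank1, an adaptor at focal adhesions, had 131 and 114 for PGC, then 146 and 101 (Day3) and 41.4 and 30.5 (Day6), and 24.6 and 24.8 for EG cells, with EG below Day6. Actn2, an actin crosslinker, had 101 to 254 on the early arrays and 14.2 to 57.1 on the late arrays, and the range of Aif1l, an actin-bundling protein, was 126 to 300.5 on the early arrays and 20.1 to 76.8 on the late arrays. Nav1, Ppfibp2, Icam4 and Kif16b differed by 2.71, 2.65, 3.35 and 2.72-fold between early and late arrays.

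Other desmosomal genes were tested between EG and E11.5 PGC. Pkp3, another plakophilin, rose by 4.01 ± 0.35 (SE, n = 2 arrays per group, limma adjusted p = 0.00217), from 6.92 and 4.15 to 73.1 and 102. Jup, plakoglobin, had 1.12 ± 0.31 (limma adjusted p = 0.0657), and the desmosomal cadherins Dsg2 and Dsc2 had -0.35 ± 0.47 and -0.65 ± 0.62, with no call. Of 29 other epithelial genes 5 rose and 1 fell, where 5.57% and 5.61% of all probes did, with a median of 0.34 beside -0.16 over all probes. At an unadjusted p under 0.05 in limma, 10 were higher and 2 lower, against 11.2% and 16.2% of all probes. The gene that fell was Esrp1, an epithelial splicing regulator, by 2.69 ± 0.58 (limma adjusted p = 0.0301), and it was lowest at Day6 with 7.63 and 6.15 against 147 and 48.9 in EG. The 5 and 1 were 2 to 3 and 0 to 1 without either EG array or either E11.5 PGC array, and 10 and 3 with the array series block. Between Day6 and Day3, 1 of 28 other epithelial genes was higher and 8 were lower at an unadjusted p under 0.05 in limma. The shares of all probes were 4.36% and 4.55%, and the median of the 28 was -0.38. Between EG and Day6, 9 of 28 were higher and 0 lower, against 7.06% and 5.96% of all probes, with a median of 0.11. In these 2 comparisons 0 had an adjusted p under 0.05.

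The signalling genes were 8, with a median of 3.93-fold. Fgfr2, a receptor for fibroblast growth factors, had 35.5 and 50.4 on the PGC arrays, 59.1 and 46.9 by Day3, 12.3 and 14.6 by Day6 and 6.03 and 5.25 in EG cells. The arrays of E11.5 PGC and Day3 overlapped, both Day6 arrays lay below them, and both EG arrays lay below both Day6 arrays. Cables1, a binding partner of cyclin-dependent kinases, had EG below Day6 in the same way, with PGC intensities of 94.7 and 94.8, followed by 60.1 and 56.3 on Day3, 22.6 and 20.3 on Day6 and 11.1 and 12.3 for EG. Socs2, an inhibitor of cytokine receptor signalling, was among the brightest of the set with 2082 and 3241 for PGC, then 1580 and 1398 (Day3) and 358 and 857 (Day6), and 629 and 366 for EG cells; it lay just inside the gap threshold. Tec, a cytoplasmic tyrosine kinase, was dim throughout with 8.03 to 13.8 on the early arrays and 1.29 to 3.66 on the late arrays. Opn3, an opsin, was brighter in EG than at Day6 on both arrays, with 3.17 and 2.44 at Day6 and 6.98 and 6.57 in EG. Ptpn22 (a phosphatase), Grn (progranulin) and Olfr1015 (an odorant receptor) differed by 4.02, 2.14 and 2.399-fold.

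Chromatin, RNA and protein turnover genes were 9, with a median of 2.68-fold. Macroh2a1, which encodes a histone variant of silent chromatin, had 1824 and 1243 on the PGC arrays, 1850 and 1039 by Day3, 513 and 566 by Day6 and 465 and 627 in EG cells. Day6 and EG overlapped, and their means were equal (difference 0.00 ± 0.38). The gene of its sister variant, Macroh2a2, was not in the set and had PGC intensities of 107 and 114, followed by 150.5 and 165 on Day3, 169 and 198 on Day6 and 192 and 268 for EG, with a difference of 1.04 ± 0.28 between EG and E11.5 PGC that missed the threshold (limma adjusted p = 0.0590). Ptbp2, a splicing repressor, had 491 and 369.9 for PGC, then 477 and 386 (Day3) and 175 and 178 (Day6), and 131 and 124 for EG cells. Tada1, a subunit of the SAGA complex, had 234 and 144 on the PGC arrays, 172 and 120.0 by Day3, 61.7 and 48.1 by Day6 and 24.5 and 23.5 in EG cells, with EG at a lower level than Day6. Med14 (Mediator), Pdcd4 (translation), Ube2e1 (ubiquitin conjugation), Ist1 (ESCRT-III), Elac1 (tRNA processing) and Pan2 (deadenylation) differed by 3.13, 3.06, 2.63, 2.52, 2.21 and 1.93-fold. Pan2 had the smallest difference of the 66, and a second probe for it had values on only 3 arrays.

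Enzymes and transporters formed the largest group with 16 genes and a median of 3.19-fold. Coq2, which attaches the side chain of ubiquinone, had PGC intensities of 465 and 552, followed by 381 and 282 on Day3, 91.7 and 110.5 on Day6 and 131 and 114 for EG. Gclc, the catalytic subunit of the first step of glutathione synthesis, had 386 and 523 for PGC, then 364 and 313 (Day3) and 130.0 and 125 (Day6), and 151 and 105 for EG cells. Glrx2, a mitochondrial glutaredoxin, had 1526 and 932 on the PGC arrays, 983 and 548 by Day3, 314 and 303 by Day6 and 315 and 255 in EG cells. In all 3 the late arrays of Day6 and EG overlapped or lay close together. Cerk, ceramide kinase, had PGC intensities of 45.4 and 48.5, followed by 31.8 and 18.4 on Day3, 8.19 and 6.39 on Day6 and 7.48 and 7.84 for EG. Sgpp1, a phosphatase of sphingosine-1-phosphate, had 12.2 and 26.3 for PGC, then 12.98 and 24.9 (Day3) and 5.03 and 7.39 (Day6), and 2.34 and 1.73 for EG cells. Both act in sphingolipid metabolism; the EG arrays of Sgpp1 lay below both Day6 arrays, and those of Cerk lay between them. Slc7a9, a cystine and basic amino acid carrier, varied between replicates with 19.6 to 58.96 on the early arrays and 2.01 to 9.75 on the late arrays. The other lipid genes Soat1, Liph, Gpld1, Ehhadh and Etnk1 differed by 3.41, 2.71, 4.55, 2.3 and 2.61-fold. Rpia (pentose phosphate pathway), St6gal1 (sialylation), Tmtc4 (O-mannosylation), Fhit (dinucleotide hydrolysis) and Bace1 (a membrane protease) differed by 3.01, 3.35, 3.21, 2.89 and 2.61-fold.

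The cilium-associated genes were Pih1d2, Ttc23 and Cfap300 (3 genes). Pih1d2, a relative of dynein assembly factors, had 47.4 and 45.1 on the PGC arrays, 21.4 and 25.4 by Day3, 9.797 and 8.71 by Day6 and 4.95 and 5.34 in EG cells, a stepwise order in which no 2 neighbouring groups overlapped. Ttc23 and Cfap300 differed by 3.41 and 2.49-fold. Of 9 genes with other or little described roles, Fam221a had PGC intensities of 783 and 541, followed by 516 and 334 on Day3, 75.3 and 129.6 on Day6 and 123 and 161 for EG. Prr15 had 15.8 and 13.8 for PGC, then 28.9 and 13.0 (Day3) and 4.91 and 5.82 (Day6), and 5.03 and 4.99 for EG cells, with Day3 replicate 1 the brightest array. Tmem123, Klhl32, Fam110c, Syt9, Krcc1, Ccdc126 and Fam241a lay between 1.96 and 3.84-fold. At the edge of the choice, the gaps just inside were 0.701 for Fam110c, 0.705 for Utp14b and 0.706 for Socs2, and those just outside were 0.699 for Asb3, 0.690 for Efna1 and 0.681 for Purg.

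Array names in the labels begin with one of 2 prefixes, called array series A and B here. Both EG arrays are in series A, together with replicate 1 of each other group, and series B holds each replicate 2 apart from EG. Within series A the median difference between Day6 and Day3 of the 66 genes was -1.63 (range -5.25 to -0.76), against -0.10 over all probes. Within series B it was -1.34 (-3.87 to -0.70), against 0.02. The difference was larger in size in series A for 48 genes and in series B for 18. The Day6 array with the high fibroblast markers (sum 1102) is in series A, and the values of series B are without it (sum 89.0). Relative to the early mean, the median was -1.74 and -1.55 on the Day6 arrays and -1.70 and -1.79 on the EG arrays. Across all genes limma called 0 of 20015 probes (0%) between Day6 and Day3, so without a block no gene of a list was called at this step; at an unadjusted p under 0.05 there were 1783 probes (8.91%). The block changed this. With the array series as a block 35 of 621 list genes, those of the 66 included, were called between Day6 and Day3 (22 lower and 13 higher). With the replicate number as a block 12 were called (9 lower and 3 higher). Genes of the 66 were chosen for Day6 arrays below the Day3 arrays, so their calls in these counts are no test. Replicates of the same number shared deviations from their group means in E11.5 PGC, Day3 and Day6 (correlations of 0.55 to 0.69 over 19524 probes).

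**Figure D3:**
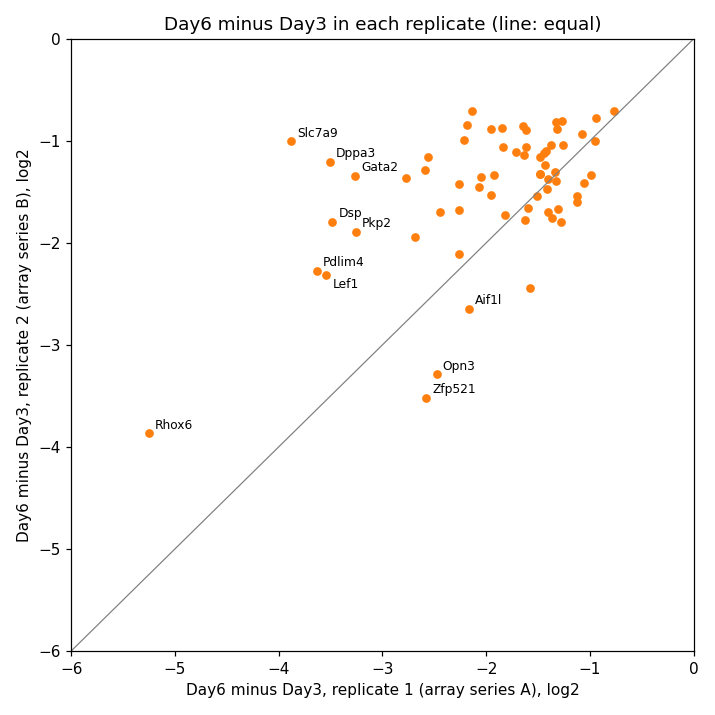
Day6 minus Day3 (log2 intensity) of each of the 66 genes in replicate 1 (array series A, horizontal axis) and replicate 2 (array series B, vertical axis); the line marks equal values. Points above the line were lower by more in series A (48 genes), Slc7a9 and Dppa3 among them, and points below it in series B (18 genes), Zfp521 and Opn3 among them.

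The choice put an upper bound, but no lower bound, on every Day6 and EG array of these genes. The EG against Day6 values are thus not independent of the choice, and they describe the set and support nothing about it. In the limma fit over all probes, 0 of the 66 genes had an adjusted p under 0.05 between EG and Day6, where 34 of 20103 probes did (0.169%, of which 28, or 0.139%, were higher and 6, or 0.0298%, lower in EG). The 34 were 0 to 6 with any 1 array left out and 395 when array series entered the model. At an unadjusted p under 0.05 there were 10 of the 66 (15.2%, 2 higher and 8 lower), against 13.0% of all probes. The median difference was -0.10, against -0.01 over all probes, with 40 genes below 0 and 26 above. Both EG arrays were below both Day6 arrays in 20 genes (30.3%, against 22.8% of all probes) and above both in 14 (21.2%, against 23.4%). The median absolute difference was 0.44, against 0.35 over all probes. The 95% interval of a gene reached a median of 0.80 to either side, and for 19 of the 66 genes it lay wholly within 1 log2 unit of 0, and for the others it reached past that.

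The genes farthest from 0 were named after their values were seen. Zfy1, a zinc finger gene of the Y chromosome that acts in male germ cells, had 47.5 and 52.05 on the PGC arrays, 42.1 and 71.4 by Day3, 14.8 and 24.6 by Day6 and 2.09 and 3.09 in EG cells. The difference between EG and Day6 was -2.91 ± 0.40 (SE, n = 2 arrays per group, 95% interval -3.85 to -1.97, limma adjusted p = 0.0602), and both EG arrays lay below both Day6 arrays. Over the alternative settings the adjusted p ran from 0.0162 to 0.376; it was 0.0246 with array series as a block (-2.64), and 0.138 for EG against the Day6 array of series A alone (-2.54). Kdm5d, a Y-linked demethylase gene outside the set, had PGC intensities of 36.3 and 47.6, followed by 31.2 and 40.7 on Day3, 22.3 and 33.7 on Day6 and 30.6 and 29.3 for EG, with 0.13 ± 0.32 between EG and Day6 (limma adjusted p = 0.913). Zfy2 is a close copy of Zfy1, and its part in this signal was not tested.

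Sgpp1 had -1.60 ± 0.49 (SE, n = 2 arrays per group, 95% interval -2.75 to -0.45, limma adjusted p = 0.237) and Fgfr2 -1.25 ± 0.30 (-1.96 to -0.55, 0.153). Actn2 had -1.20 ± 0.49 (limma adjusted p = 0.368), Tada1 -1.18 ± 0.35 (0.222) and Gpld1 -0.95 ± 0.33 (0.296). Tada1 was called with array series as a block (-1.44, limma adjusted p = 0.0365). Upward, Opn3 had 1.29 ± 0.49 (limma adjusted p = 0.336), Aif1l 0.99 ± 0.62 (0.580), Dsp 0.89 ± 0.41 (0.423) and Pkp2 0.88 ± 0.41 (0.431). None of these had an adjusted p under 0.05 in the fit without a block. For Rhox6 the standard error was the widest (0.69 ± 1.10, 95% interval -1.91 to 3.28), and for Dppa3 the difference was -0.53 ± 0.67 (-2.11 to 1.04).

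**Figure D4:**
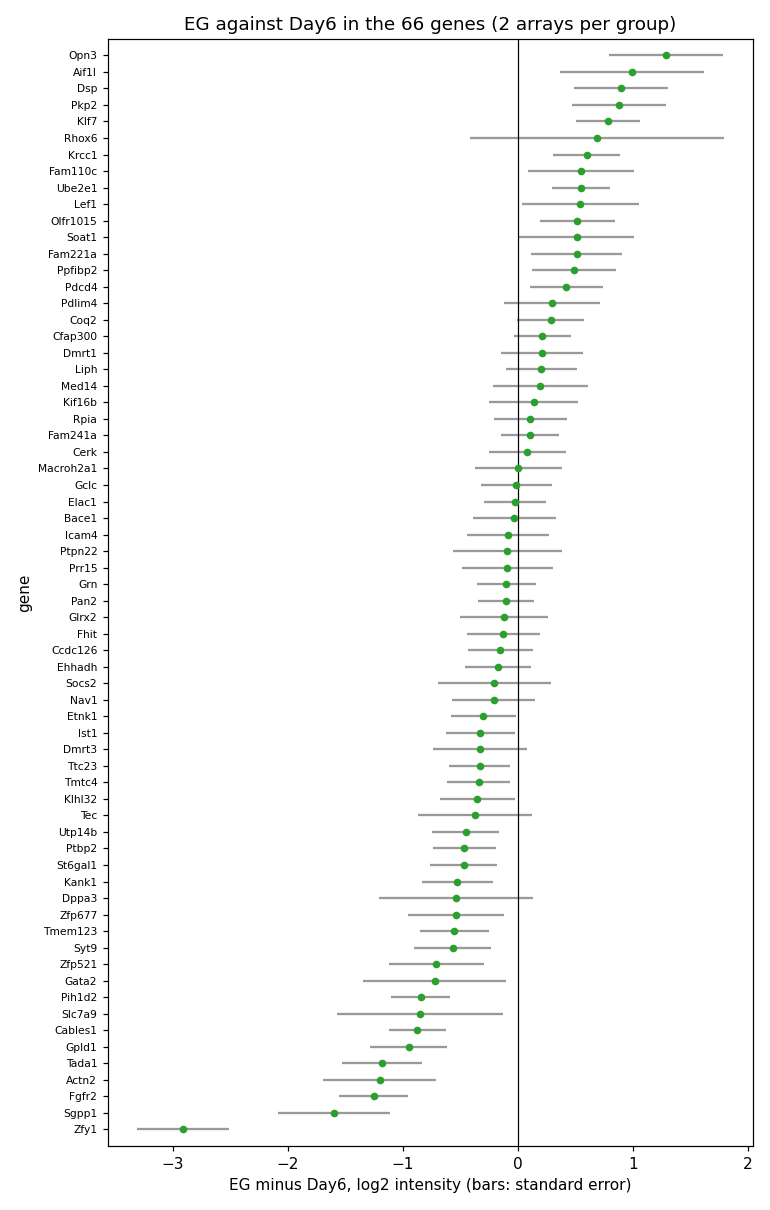
EG minus Day6 (log2 intensity, horizontal axis) for the 66 genes in order of the value; points are differences of the means of 2 arrays and bars are limma standard errors. Of the 66 points 60 lie within 1 of 0, and Zfy1 stands apart at -2.91.

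Several genes of the set are neighbours. By the gene order of GRCm38.p6 (RefSeq), 6 pairs, with 11 genes in all, had at most 5 protein-coding genes between them. Kank1, Dmrt1 and Dmrt3 follow each other on chromosome 19, with late minus early differences of -2.04, -1.89 and -1.86. Beyond Dmrt3, Dmrt2 was under the dim limit wherever it was measured. Smarca2, a chromatin remodeller gene, had -2.10 but uneven arrays, with 27.1 and 55.7 for PGC, then 5.11 and 63.7 (Day3) and 2.33 and 26.8 (Day6), and 5.74 and 4.06 for EG cells. Before Kank1, Cbwd1 had -0.19 and Foxd4 -0.53. On chromosome 6, Ccdc126 (70.4 and 87.3 on the PGC arrays, 71.7 and 85.6 by Day3, 34.4 and 32.04 by Day6 and 26.2 and 33.9 in EG cells) stands beside Fam221a, with -1.32 and -2.14. The next gene, Stk31, a germ cell kinase gene, had -1.76 with PGC intensities of 237 and 271, followed by 98.8 and 209.7 on Day3, 51.1 and 202 on Day6 and 25.3 and 38.3 for EG; it stayed out of the set because Day6 replicate 2 was brighter than Day3 replicate 1, and between EG and E11.5 PGC it fell by 3.03 ± 0.66 (SE, n = 2 arrays per group, limma adjusted p = 0.0310). In the other pairs, Map3k13 and Tmem41a between Ehhadh and Liph had -0.46 and -0.62, Olfml1 between Syt9 and Ppfibp2 had 1.14, and Birc2, Birc3 and Yap1 between Tmem123 and Cfap300 had -0.51, -0.30 and -1.03. Chromosome 6 held 8 of the 66 (12.1%, against 5.27% of measured genes) and chromosome 1 held 7 (10.6%, against 5.75%); these shares were not tested.

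**Figure D5:**
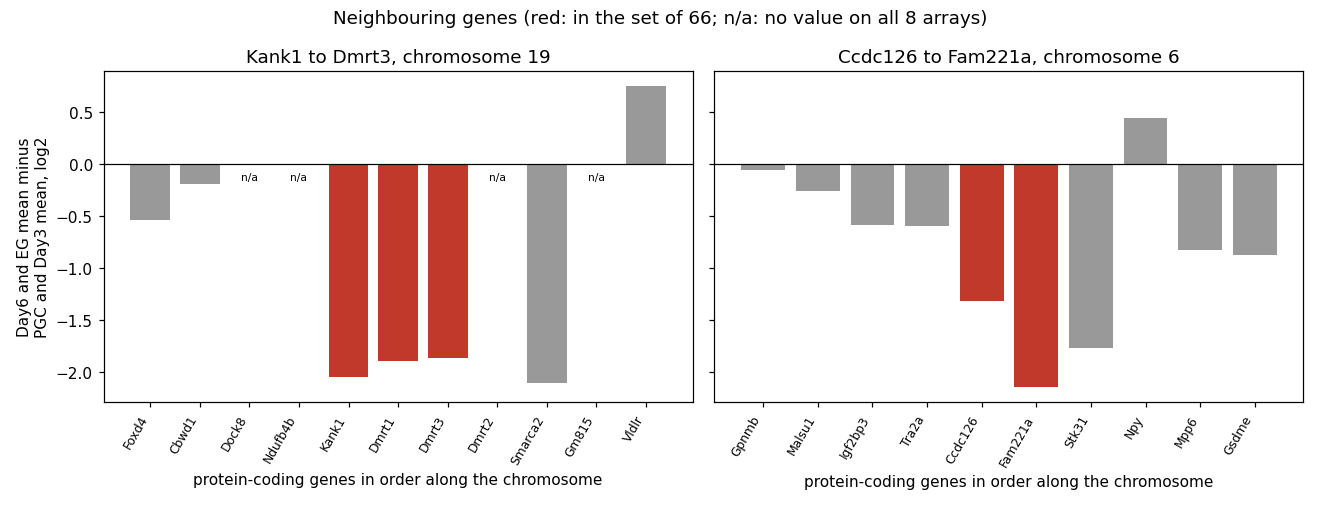
Mean log2 intensity of the Day6 and EG arrays minus that of the E11.5 PGC and Day3 arrays (vertical axis) for protein-coding genes in chromosomal order around Kank1 to Dmrt3 and around Ccdc126 to Fam221a; red bars belong to the set of 66, grey bars do not, and n/a marks genes without a value on all 8 arrays. The red bars lie between -1.32 and -2.14, and among the grey bars Smarca2 (-2.10) and Stk31 (-1.76) lie in the same range.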

How the data were processed

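Total RNA was amplified as aminoallyl aRNA, labelled with Cy5 and hybridised to one-colour TORAY arrays, per the labels. The authors deposited linear intensity per probe, scaled to an array median near 20; the background correction, the scaling and the reason for missing values are unstated in the labels and files used here. Values were converted to log2 with no further normalization, and missing values stayed missing. Of 23473 probes, 16631 had 1 gene symbol (3947 updated through synonyms) and 6842 had none; 14030 genes had a value on all 8 arrays. A probe entered a test only with all 4 values of the pair of groups present.

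Differences were tested with limma 3.58.1 in R 4.3.3 on all 8 arrays and 4 groups, two-sided, with Benjamini-Hochberg adjustment over all probes tested and a threshold of 0.05 on the adjusted p; the model has no block, and groups of 2 share one estimate of the spread. The fit was tested on simulated data with changes set between EG and Day6. It called 2 of 50 probes changed 2-fold, 25 of 50 changed 4-fold, 35 of 50 changed 8-fold and 39 of 50 changed 16-fold. There were 4 false calls among the 19524 probes, so most 2-fold differences were missed in the simulation. The simulated noise was independent between arrays, without the deviations that replicates of the same number shared in the data. The rates of missed and false calls in the real fit can therefore differ from these. The brightest probe stood for a gene. The 26 gene lists (792 genes, 682 on the array) and the set of 66 were chosen with earlier results of these data known, so no p is adjusted over a list alone.

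Genes were named by a rule: the 20 largest gaps, members of a list, genes called between EG and Day6, the 3 genes on either side of the gap threshold, the 5 brightest on the early arrays, and those with a second probe measured on all arrays. All others, and the grouping by role, were chosen after their values were seen. Alternatives were quantile normalization, median centring, log2(intensity + 2), leaving out the dimmest 25% of probes, limma with trend and robust variance, fewer arrays, a replicate or array series block, other thresholds, and each array left out.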

Additional observations from a re-analysis of the deposited data

How the results depend on the processing

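The number of genes meeting the rule (66) was 127 with a gap of at least 0.5 and 27 with a gap of at least 1. It ran from 71 to 210 with 1 array left out, and was 142 without Day3 replicate 1, 179 without Day3 replicate 2 and 210 without Day6 replicate 2, since fewer arrays then bound the gap. It was 63 after quantile normalization or median centring (52 of the 66 shared each time) and 58 with a pseudocount of 2 (54 shared). The count of the 66 called between EG and Day6 (0) was 1, Zfy1 each time, with median centring, the pseudocount, trend and robust variance, or without the dimmest 25% of probes, 2 (Zfy1 and Tada1) with the array series block, and 0 in every fit that left out an array. The count of all probes called (34) was 145 with the pseudocount, 89 without the dimmest 25%, 98 with trend and robust variance and 395 with the array series block. It was 0 with the Day6 and EG arrays only or with EG against Day6 replicate 1 in series A, and 0 to 6 with 1 array left out, each array changing it by over 1.5 times: 2 without either E11.5 PGC array, 6 without either Day3 array and 0 without any Day6 or EG array. The median EG minus Day6 difference of the 66 stayed between -0.26 and 0.01 in these fits. Without Day6 replicate 2 it was the one fit with a value above 0. For genes of the lists, the count between EG and E11.5 PGC (117 of 638) was 219 with the array series block, and 23 to 144 with 1 array left out, an alternative chosen after seeing the data (50 without E11.5 PGC replicate 1, 36 without E11.5 PGC replicate 2, 31 without EG replicate 1, 23 without EG replicate 2). Between Day6 and Day3 (0 of 621) it was 35 with the array series block and 0 in every fit that left out an array. Any genes of the 66 in these list counts were chosen by differences between early and late arrays, so their calls are no test. The causes were not tested.

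With the replicate number as a block, 1 of the 66 (Zfy1) and 240 of all probes were called between EG and Day6. Of the list genes 12 were called between Day6 and Day3 and 187 between EG and E11.5 PGC, with the same limit for any genes of the 66. The numbers do not pair the EG arrays: deviations from the group means correlated at 0.62 for E11.5 PGC and Day3, 0.55 for E11.5 PGC and Day6 and 0.69 for Day3 and Day6, but -0.02, 0.01 and 0.06 with EG. Differences of genes under 4.24 on the late arrays are limited by the dim signal.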

Other observations

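Of the 5313 probes without a gene symbol and with a value on all arrays, 15 met the same rule. The mirrored rule, with the late arrays above the early arrays, was met by 76 genes. A further 31 genes met the gap but differed by 1 log2 unit or more between Day3 and E11.5 PGC, which brings the count without that limit to 97.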
